A study of Rattus norvegicus with 6 samples.

Results

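Respiratory complex I, the NADH:ubiquinone oxidoreductase of the inner mitochondrial membrane, is built from subunits encoded in 2 genomes. The genes described here are the rows of the deposited expression table whose symbol begins with Ndufa, Ndufb, Ndufc, Ndufs, Ndufv or Ndufab and a digit, or with Mt-nd and a digit. They number 47 of 32623 rows, 40 of them nuclear and 7 mitochondrial. Of these, 45 had enough counts to be tested (38 nuclear and 7 mitochondrial). The cells were rat nucleus pulposus cells, which populate the soft centre of the intervertebral disc, taken from the lumbar spine of Sprague-Dawley males (4 weeks of age) and used after several passages in culture. For 72 hours they had been exposed to lentivirus, which delivered either a hairpin RNA that targets Bmal1 (3 libraries, shBmal1) or a non-targeting one (3 libraries, shNC). No other treatment is named, and both groups carry a lentiviral hairpin. Whether replicate libraries stem from different cultures or rats is not stated in the labels. P-values therefore cover just the spread among these samples, and that spread may be technical.

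Complex I oxidises NADH, passes the electrons along a flavin and a chain of iron-sulfur clusters to ubiquinone, and pumps protons. Its matrix arm holds the NADH-binding N module and the ubiquinone-reducing Q module, whose core subunits are all nuclear-encoded. The core of its proton-pumping membrane arm consists of the Mt-nd proteins. Supernumerary subunits, all nuclear-encoded, surround both arms and are needed for assembly and stability. BMAL1 pairs with CLOCK to form the main activator of circadian transcription. Nucleus pulposus cells live in a poorly vascularised tissue and are known for relying largely on glycolysis.

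Several features of the whole set of libraries bear on the values below. Arntl, the symbol under which Bmal1 is listed, was at 27.4, 29.7 and 31.7 CPM (counts scaled to library size by the TMM method) in shNC and at 2.16, 4.24 and 2.07 CPM in shBmal1 (log2 fold change −3.37 ± 0.26, SE; adjusted p = 1.17e-05, edgeR). The shNC libraries held 44043803 to 49783710 counts and the shBmal1 libraries 8773762 to 11679587, a 4.44-fold difference in the mean, so that each shBmal1 value rests on fewer reads. Mitochondrial rRNA took 0.0330 to 0.0602% of counts in shNC and 0.722 to 1.31% in shBmal1. Of 14342 genes tested with edgeR's quasi-likelihood test at a Benjamini-Hochberg adjusted p under 0.05, 71.3% differed, 36% being higher and 35.3% lower in shBmal1. Genes with short transcripts were more often higher. Of 1823 tested genes under 1000 bases, 46.6% were higher and 16.4% lower, against 32.9% and 39.3% of 12119 longer genes. Lengths here are those implied by the ratio of deposited count to deposited FPKM, a level corrected for depth and gene length. Of 12 listed nucleus pulposus markers, 4 fell, 2 rose and 4 did not pass, while the notochord gene Tbxt had no count in any library. The summed level of these markers was 1344 to 1408 CPM in shNC and 239 to 282 CPM in shBmal1, with Acan (aggrecan) at 648 ± 43.8 against 32.8 ± 4.02 CPM and Pax1 at 527 ± 12.9 against 84.9 ± 4.93 CPM (SD, n = 3). Skeletal muscle markers, of a tissue rich in complex I, summed to 11.3 to 13.96 CPM in shNC and 2.69 to 59.2 CPM in shBmal1, with Mb at 0 throughout. Markers of macrophages summed to 32.4 to 43.0 against 27.3 to 34.3 CPM, of endothelium to at most 0.190 against 1.80 CPM, of red cells to at most 0.594 against 0.331 CPM and of smooth muscle to 1596 to 1740 against 70.6 to 118 CPM. Most of the smooth muscle sum was Acta2 (mean 1649 against 92.0 CPM). Cnn1 was lower too, but Myh11 was called higher (log2 fold change 0.62, adjusted p = 0.0462, edgeR). Most of the macrophage sum was Cd14, which was called lower (mean 35.4 against 26.9 CPM). Cd68 was called higher (mean 0.407 against 2.89 CPM), and Ptprc, Csf1r and Adgre1 had too few counts to be tested. What part depth, rRNA and these markers had in the complex I values was not tested. In bulk RNA, fewer cells of a type and less RNA per cell cannot be told apart.

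The mitochondrially encoded mRNAs were lower in shBmal1, whereas the nuclear-encoded ones moved in both directions with more rises than falls. All 7 Mt-nd genes passed the test as lower, against 35.3% of all tested genes, and the DESeq2 test called the same 7 lower. Their log2 fold changes ran from −0.90 to −0.23 with a median of −0.39, beside −0.01 over all tested genes. Of 38 tested nuclear members, 18 rose, 7 fell and 13 did not pass, with a median log2 fold change of 0.32. The share that rose, 47.4%, and the share that fell, 18.4%, lay close to the 46.6% and 16.4% of all tested genes under 1000 bases, and the median tested nuclear member had a length of 740 bases.

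Mt-nd1, Mt-nd2 and Mt-nd3 fell by different amounts. The product of Mt-nd1 sits where the membrane arm meets the matrix arm, and that of Mt-nd2 is one of the antiporter-like proton pumps. Mt-nd1 (mitochondrial genome, 2740 to 3694, forward strand) was at 1152, 1172 and 1168 CPM in shNC and at 760, 707 and 756 CPM in shBmal1. The groups lay far apart, with a log2 fold change of −0.65 ± 0.05 (SE; adjusted p = 1.53e-05, edgeR). Mt-nd2 (3904 to 4942) was at 1165, 1265 and 1243 CPM against 1059, 1026 and 1041 CPM. Its groups did not overlap but were closer, and its change of −0.23 ± 0.05 (adjusted p = 0.00536, edgeR) was the smallest of the 7. Mt-nd3 (9451 to 9798) was at 240, 281 and 276 CPM in shNC and at 152, 143 and 131 CPM in shBmal1 (−0.90 ± 0.09, adjusted p = 3.29e-05, edgeR), so that every shBmal1 library held less than any shNC library.

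The remaining Mt-nd genes include Mt-nd4 and Mt-nd5, which encode the other antiporter-like pumps. Mt-nd4l (9870 to 10166) was at 234, 342 and 320 CPM in shNC and at 161, 166 and 153 CPM in shBmal1 (−0.90 ± 0.13, adjusted p = 0.000461, edgeR). Mt-nd4 (10160 to 11537), which overlaps Mt-nd4l by 7 bases and is known to be read from the same mRNA, was at 1228, 1527 and 1745 CPM against 1148, 1185 and 1113 CPM. In both genes shNC replicate 1 was the lowest control library, and for Mt-nd4 it lay just above the shBmal1 values. The change of Mt-nd4, −0.39 ± 0.12 (adjusted p = 0.0178, edgeR), missed the threshold without shNC replicate 2 (adjusted p = 0.0523) or 3 (0.0576), and over all alternatives its adjusted p was at most the latter. Mt-nd5 (11736 to 13565) was at 1399, 1576 and 1606 CPM against 1153, 1263 and 1216 CPM (−0.33 ± 0.07, adjusted p = 0.0030, edgeR). Mt-nd6, the only Mt-nd gene on the reverse strand (13543 to 14061), was at 302, 309 and 321 CPM in shNC and 228, 272 and 231 CPM in shBmal1 (−0.35 ± 0.08, adjusted p = 0.00477, edgeR). It overlaps Mt-nd5 by 23 bases, and strand use in counting was not given in the sources used here, so reads from the opposite strand of this region cannot be told apart.

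**Figure D1:**
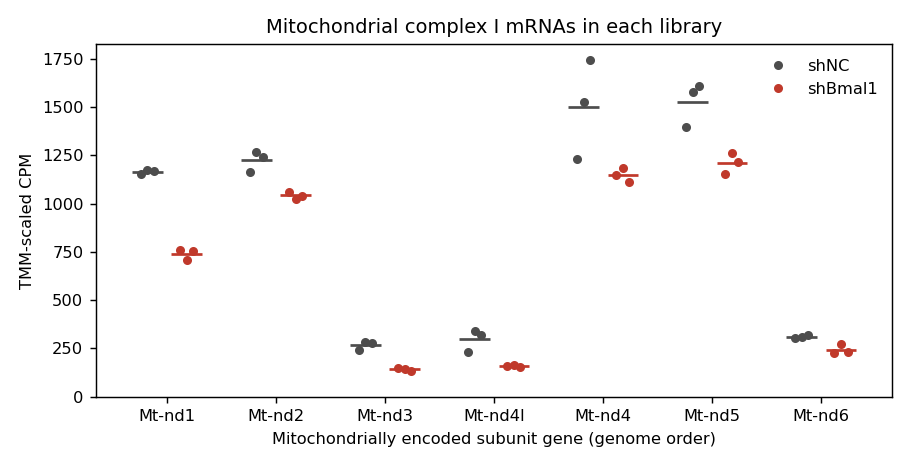
TMM-scaled CPM (y axis) of the 7 mitochondrially encoded subunit genes in genome order (x axis), with 1 point per library (n = 3 per group) and a line at each group mean. For every gene the shBmal1 points lie below the shNC points. The groups come close for Mt-nd4, where shNC replicate 1 (1228 CPM) sits near the shBmal1 libraries. They also do for Mt-nd6 (lowest shNC library 302 CPM, highest shBmal1 library 272 CPM).

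The other mitochondrial mRNAs showed the same direction with a single exception. Of 6, 4 fell, 1 rose and 1 did not pass, beside 35.3% lower and 36% higher among all tested genes. Mt-cyb, the complex III subunit, fell by 0.63, Mt-co2 by 0.69 and Mt-atp8 by 0.59, as log2 values (edgeR, adjusted p = 1.19e-05, 1.07e-05 and 1.89e-05). Mt-co3 had a value of −0.15 (adjusted p = 0.0516, edgeR) and was called lower without a filter, with the replicate block, with TPM, with the length trend removed and without shBmal1 replicate 1 or 3 (adjusted p = 0.0124, 0.0425, 0.00502, 0.000245, 0.043 and 0.0253). Mt-co1, the catalytic subunit of cytochrome oxidase, rose by 0.93 (adjusted p = 2.41e-06, edgeR), from 10677 ± 459 to 20315 ± 659 CPM (SD, n = 3). With it, the summed level of these 6 mRNAs was higher in shBmal1, at 27788 to 29420 CPM against 21382 to 22976 CPM in shNC. All mitochondrial mRNAs together took 2.69 ± 0.136% of counts in shNC and 3.52 ± 0.0885% in shBmal1 (SD, n = 3). The Mt-nd genes therefore took 21.1 to 23.2% of all mitochondrial mRNA counts in shNC and 13.6 to 14.4% in shBmal1. With Mt-co1 left out of that sum, their share was 33.8 to 36.8% in shNC against 35.3 to 36.3% in shBmal1, so that the groups overlapped. Mitochondrial rRNA went the other way, at 0.0476 ± 0.0137% of counts in shNC and 0.919 ± 0.339% in shBmal1 (SD, n = 3). With rRNA genes removed from scaling and fit, all 7 Mt-nd genes were still called lower with a median of −0.38.

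Nuclear core subunits, most of which carry the flavin or iron-sulfur clusters, showed falls only in the edgeR test. Of 7, 3 fell, beside 35.3% of all tested genes, and 4 did not pass, also at an unadjusted p under 0.05, and their median log2 fold change was −0.29. DESeq2 called the same 3 lower and also called Ndufs7 higher (adjusted p = 0.0287). With TPM, 6 of the 7 were called lower, with a median of −0.67. Over all 14342 tested genes, TPM called 6681 lower, with a median of −0.35. Ndufv1, which binds NADH and the flavin (chromosome 1, 219254279 to 219259448, reverse strand; the build of the table's coordinates was not given in the sources used here), was at 75.5, 80.7 and 74.7 CPM in shNC and at 53.3, 62.9 and 61.4 CPM in shBmal1. The groups did not overlap (log2 fold change −0.38 ± 0.09, SE; adjusted p = 0.0044, edgeR). Ndufv2, an iron-sulfur subunit of the N module (chromosome 9, 113875703 to 113900190, reverse strand), was at 36.2, 41.3 and 39.0 CPM against 20.4, 21.1 and 18.2 CPM. All shBmal1 values were well under the lowest control (−0.97 ± 0.10, adjusted p = 7.71e-05, edgeR). Ndufs8, an iron-sulfur subunit of the Q module (chromosome 1, 219141292 to 219144610, reverse strand), was at 22.9, 22.9 and 19.6 CPM against 12.2, 14.8 and 15.6 CPM (−0.62 ± 0.14, adjusted p = 0.00481, edgeR).

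Ndufs1, Ndufs3 and Ndufs7 were not called by edgeR. Ndufs1, the largest iron-sulfur subunit, was at 69.4, 66.9 and 70.0 CPM in shNC and at 63.4, 65.6 and 77.7 CPM in shBmal1 (log2 fold change 0.00 ± 0.09). Ndufs3 was at 25.3, 27.2 and 25.7 CPM against 16.2, 23.1 and 24.7 CPM (−0.29 ± 0.16), with shBmal1 replicate 1 the lowest. Ndufs7, which holds the last cluster before ubiquinone, was at 23.2, 22.3 and 24.6 CPM against 23.4, 31.6 and 31.5 CPM (0.31 ± 0.14), and it passed without shBmal1 replicate 1 (adjusted p = 0.00654, edgeR).

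Of 27 tested supernumerary subunits, 16 rose (59.3%), 3 fell (11.1%) and 8 did not pass, with a median log2 fold change of 0.69. Their median length was 603 bases, and among all tested genes under 1000 bases 46.6% rose and 16.4% fell. With the length trend removed, 5293 of all 14342 tested genes were higher and 4794 lower. In that fit, 10 supernumerary genes were higher and 8 lower, with a median of 0.09. Those of the membrane arm made up most of the rises, with 11 of 18 higher and 2 lower (6 and 6 with the length trend removed), whereas 2 of 9 N module members, core included, were higher and 3 lower. Whether the arms differed was not tested. The Ndufb genes, whose products are known to sit around the distal pumps of the membrane arm, had 8 of 10 members higher and 0 lower (edgeR, also at an unadjusted p under 0.05). Ndufb4 and Ndufb10 had values of 0.04 and −0.14. DESeq2 made the same calls. With the length trend removed or with TPM both of these were called lower, and the rises numbered 5 and 8. Rises over all 14342 tested genes numbered 5293 and 4065 in those settings.

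Ndufb11 had the largest called rise (chromosome X, 1787266 to 1789524, forward strand). It was at 41.2, 37.5 and 39.7 CPM in shNC and at 119, 121 and 126 CPM in shBmal1, a 3.10-fold difference with little spread in either group (log2 fold change 1.63 ± 0.07, SE; adjusted p = 4.74e-07, edgeR). Ndufa7, a matrix arm subunit (chromosome 7, 18683553 to 18696330, forward strand), was at 25.9, 26.5 and 22.8 CPM against 57.8, 64.8 and 65.2 CPM (1.32 ± 0.10). Ndufb6 was at 24.9, 26.5 and 29.8 CPM against 47.6, 68.4 and 65.2 CPM (1.16 ± 0.15). In these genes no shBmal1 library came near a control library.

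Ndufa5, a supernumerary subunit of the Q module, was at 30.9, 25.9 and 23.4 CPM in shNC and at 49.9, 67.0 and 61.9 CPM in shBmal1 (1.16 ± 0.14). Ndufb9 was at 28.0, 31.1 and 31.3 CPM against 55.1, 66.3 and 71.3 CPM (1.09 ± 0.11). Ndufa13, also known as GRIM-19, was the most abundant supernumerary mRNA per length, at a mean FPKM of 122 in shNC and 277 in shBmal1. Its CPM were 63.3, 60.8 and 63.8 against 113, 132 and 149 (1.07 ± 0.10, adjusted p = 3.9e-05, edgeR). In Ndufb9 and Ndufa13, as in every other called nuclear rise except Ndufb3, Ndufb7 and Ndufa4, shBmal1 replicate 1 was the lowest library of its group. This library also had the highest share of mitochondrial rRNA (1.31%, against 0.725 and 0.722% in replicates 2 and 3) and the lowest sum of skeletal muscle markers (2.69 CPM, with Ckm at 0 against 15.5 and 13.99 CPM in replicates 2 and 3). The part of either in these values was not tested.

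The other called rises among supernumerary subunits were smaller, from 0.46 for Ndufa2 to 0.999 for Ndufb8. They included Ndufb5 (0.91), Ndufb2 (0.79), Ndufb7 (0.77), Ndufb3 (0.76), Ndufa11 (0.64) and Ndufs5 (0.63). Ndufa9, which stabilises the junction of the arms, rose by 0.74, and Ndufab1, the mitochondrial acyl carrier protein that sits in both arms, by 0.69. Ndufa2 missed the threshold without shNC replicate 2 or shBmal1 replicate 2 or 3 (adjusted p = 0.0698, 0.0702 and 0.0732, edgeR), without a filter (0.0554), with TPM (0.598, limma) and with the length trend removed (0.166). With TPM the calls of Ndufa9, Ndufab1 and Ndufs5 were lost too (adjusted p = 0.116, 0.181 and 0.117, limma). Ndufs4, Ndufc1, Ndufa6, Ndufa12 and Ndufc2 were not called, with values from −0.12 to 0.33. Ndufs4 passed without shBmal1 replicate 2 (adjusted p = 0.0299, edgeR) and with the DESeq2 test (0.0497).

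Ndufv3 and Ndufa3 fell most among the nuclear genes, and 1 further supernumerary gene, Ndufa8, fell slightly. Ndufv3, a small subunit of the N module that borders Ndufv1 and Ndufv2 (chromosome 20, 10265806 to 10275304, forward strand), was at 59.8, 67.7 and 66.9 CPM in shNC and at 27.9, 29.8 and 26.9 CPM in shBmal1 (−1.20 ± 0.09, adjusted p = 8.17e-06, edgeR). All 3 genes of the flavoprotein fraction, Ndufv1, Ndufv2 and Ndufv3, thus fell, and this trio was singled out after its values were seen. Ndufa3, a membrane arm subunit (chromosome 1, 64172540 to 64175099, reverse strand), was at 7.38, 8.05 and 6.96 CPM against 3.77, 3.27 and 1.99 CPM (−1.32 ± 0.29, adjusted p = 0.00373, edgeR). It rests on 24 to 40 counts per shBmal1 library. Ndufa8, with the smallest of the 7 called nuclear falls, was at 44.8, 40.2 and 38.7 CPM against 31.0, 30.1 and 38.2 CPM. The highest shBmal1 value nearly met the lowest control, and the call (−0.31 ± 0.12, adjusted p = 0.0413, edgeR) was lost without shNC replicate 1, 2 or 3 (0.148, 0.0916 and 0.0656), without shBmal1 replicate 1 or 2 (0.0679 and 0.0899) and with DESeq2's test or size factors (0.0949 and 0.0881).

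**Figure D2:**
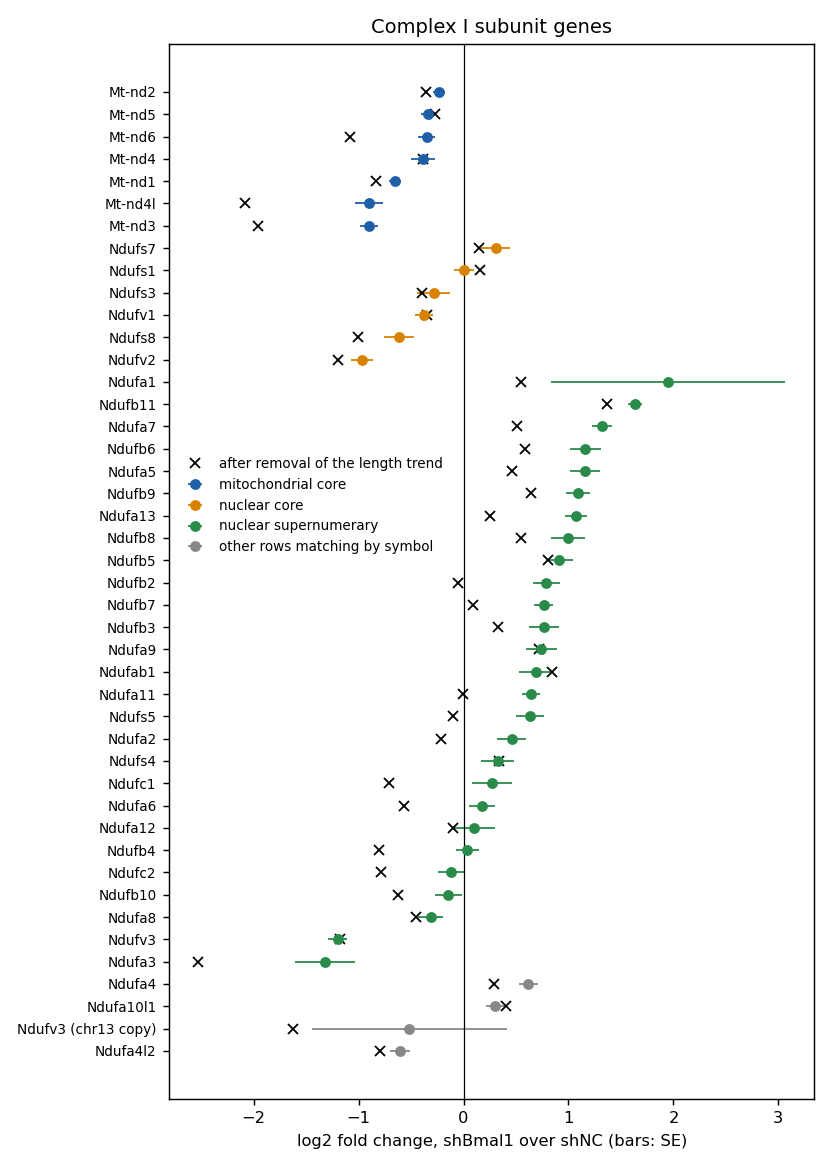
Log2 fold change of shBmal1 over shNC (x axis) for 44 of the 45 tested members (y axis), as filled points with SE bars, coloured by class; crosses give the value after the per-library trend on gene length was removed. The 7 mitochondrial genes lie left of 0 by both measures, while many supernumerary genes move left when the length trend is removed.

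Fold changes depended on transcript length over the whole table, and less plainly among the members. Over the 38 tested nuclear members, Spearman's rho between length and log2 fold change was −0.24, a description across genes, which are not independent replicates. Over all tested genes, the median log2 fold change was 1.27 in the 696 genes of at most 500 bases, 0.45 between 500 and 1000 bases and below 0 in each longer class, down to −0.32 in the 1057 longest genes. Of 26 nuclear members under 1000 bases, 14 rose and 4 fell with a median of 0.63, beside 0.72 over all 1823 tested genes that short. Of the 12 longer ones, 4 rose and 3 fell. Among all tested genes, 46.6% of those under 1000 bases rose and 16.4% fell, against 32.9% and 39.3% of longer ones. Removing each library's trend of counts on length left 12 nuclear members higher and 12 lower, beside 5293 and 4794 of all 14342 tested genes. The nuclear median became 0.04, beside 0.04 over all tested genes.

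Several calls depended on that step. Ndufb11 (1.37), Ndufb5 (0.80), Ndufa9 (0.71), Ndufab1 (0.84) and Ndufb9 (0.64) were still called higher, and so were Ndufb6 (0.59), Ndufa7 (0.51) and Ndufa5 (0.47). Ndufb2, Ndufa11 and Ndufs5 came to −0.05, −0.01 and −0.10 and were not called, nor were Ndufb7 at 0.09, Ndufb3 at 0.33 and Ndufa2 at −0.21. Ndufb4, Ndufa6 and Ndufc1 came to −0.80, −0.56 and −0.71 and were called lower (adjusted p = 0.00074, 0.00203 and 0.0154, edgeR), as were Ndufc2 and Ndufb10 at −0.79 and −0.63. Ndufv1, Ndufv2, Ndufv3, Ndufs8 and Ndufa3 remained lower at −0.35, −1.19, −1.18, −1.003 and −2.53. The Mt-nd median became −0.83, with all 7 called lower, the short Mt-nd3 and Mt-nd4l reaching −1.96 and −2.08. The trend is set almost wholly by nuclear genes, and whether it applies to mitochondrial transcripts was not tested.

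**Figure D3:**
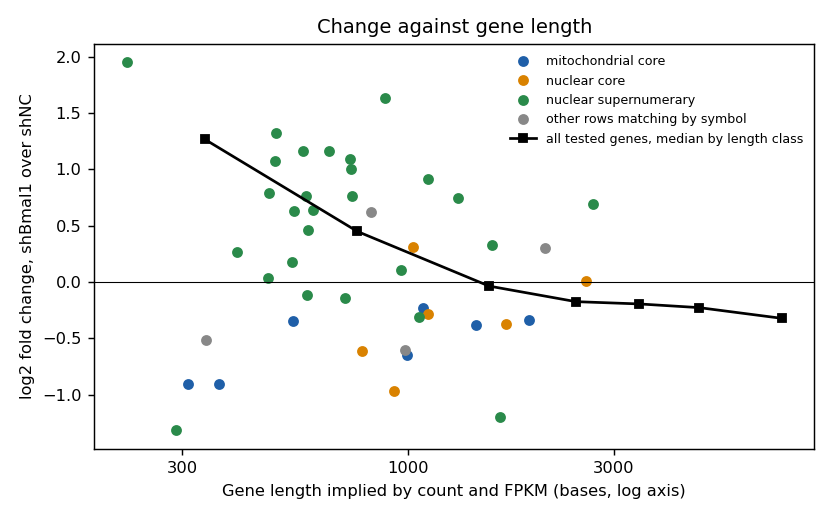
Log2 fold change of shBmal1 over shNC (y axis) against implied gene length in bases (x axis, log scale) for 44 of the 45 tested members, with black squares for the median of all tested genes in each length class. Short genes as a whole were higher in shBmal1 (median 1.27 up to 500 bases), and the supernumerary genes scatter around that line while the mitochondrial genes lie below it.

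The balance between the mitochondrial and nuclear subunit mRNAs, which does not depend on how libraries are scaled, differed between the groups. In shNC the 7 Mt-nd genes had a mean log2 CPM of 9.30, 9.50 and 9.52, against 8.91, 8.94 and 8.87 in shBmal1. The mean of the 36 nuclear members with counts in every library came to 5.01, 5.00 and 5.02 in shNC against 5.19, 5.36 and 5.37 in shBmal1. The within-library difference was thus 4.29, 4.50 and 4.50 in shNC and 3.71, 3.58 and 3.50 in shBmal1, with no overlap between groups. It fell by 0.83 on the log2 scale (4.43 ± 0.12 to 3.599 ± 0.11, SD, n = 3), several times the spread within either group. It fell by between 0.78 and 0.90 with each library left out in turn, and by 0.89 with the length trend removed. No p-value is given for this score because the members were chosen with earlier results of these data known.

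Per unit of length, Mt-nd mRNAs were far more abundant than the nuclear ones in both groups. The median FPKM of Mt-nd genes was 23.3 ± 3.05 times that of the tested nuclear members in shNC and 13.9 ± 1.02 times in shBmal1 (SD, n = 3). Among Mt-nd genes mean FPKM in shNC ran from 551 for Mt-nd6 to 1122 for Mt-nd1, and in shBmal1 from 406 for Mt-nd3 to 997 for Mt-nd2. Among tested nuclear complex I genes other than a copy of Ndufv3, the lowest mean FPKM in shNC was 7.44 for Ndufab1. Summed over genes, Mt-nd counts exceeded nuclear counts 3.59, 4.08 and 4.18 times in shNC and 2.67, 2.37 and 2.23 times in shBmal1.

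**Figure D4:**
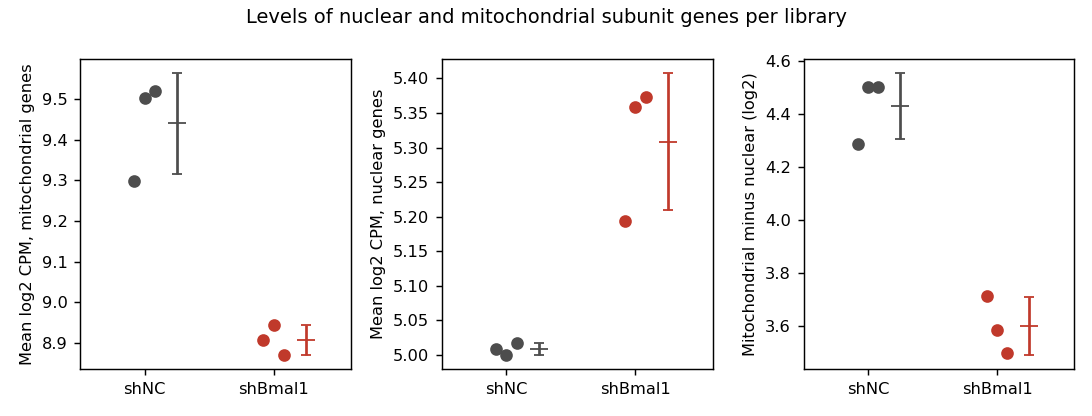
Mean log2 CPM of the 7 mitochondrial genes (left), of 36 nuclear members (middle) and their difference (right) for each library; bars are the mean and SD of 3 libraries, and the y axes do not start at 0. The difference lies between 4.29 and 4.50 in shNC and between 3.50 and 3.71 in shBmal1.

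Ndufa1, a membrane arm subunit (chromosome X, 124513269 to 124516705, reverse strand), varied widely between libraries of the same group. Its counts were 0, 727 and 908 in shNC and 305, 925 and 411 in shBmal1, and it was not called (log2 fold change 1.95 ± 1.12, adjusted p = 0.152, edgeR). LOC108348144, a second row that the table describes as the same subunit (chromosome X, 123803103 to 123806777, reverse strand), had 875, 605 and 105 counts in shNC and 431, 22 and 573 in shBmal1. Libraries low in one row were high in the other. The sum of both rows came to 19.6, 28.3 and 24.1 CPM in shNC and to 79.3, 77.3 and 81.5 CPM in shBmal1. The sum rose by 1.73 ± 0.13 on the log2 scale (adjusted p = 1.02e-05, edgeR), an alternative chosen after seeing the data. Ndufa1 has an implied length of 223 bases, and tested genes of at most 500 bases had a median of 1.27. With the length trend removed, Ndufa1 came to 0.55 and LOC108348144 (2753 bases) to 1.61 (adjusted p = 0.671 and 0.185, edgeR). The sum was not fitted with that trend removed. Ndufa1 alone passed without shNC replicate 1 (adjusted p = 0.0197, edgeR). Whether the rows are near-identical in sequence was not checked. How reads were shared between them, if at all, was not given in the sources used here.

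**Figure D5:**
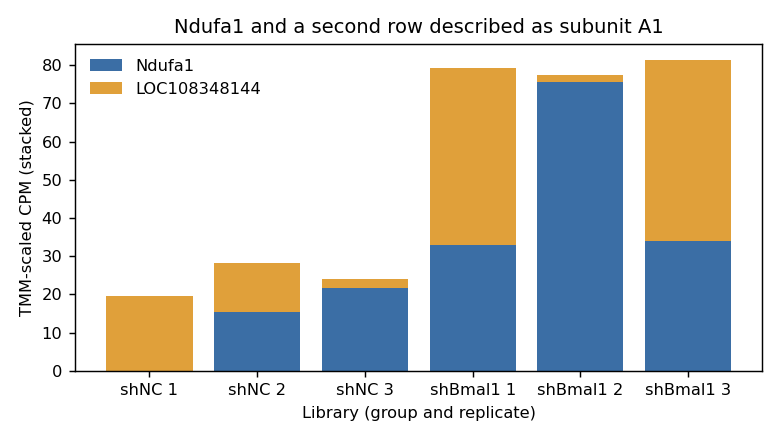
TMM-scaled CPM (y axis, stacked) of Ndufa1 and of LOC108348144, a row described as the same subunit, in each of the 6 libraries (x axis). The split between the rows varies from library to library, while the sum lies between 19.6 and 28.3 CPM in shNC and between 77.3 and 81.5 CPM in shBmal1.

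Other rows also bear on how the members are read. The row named Ndufs6 is annotated as a processed pseudogene and had 7 counts in 1 library and none elsewhere, so it was not tested. The table describes LOC100912599 and LOC679739, both on chromosome 1, as this N module subunit. Their sum was at 22.8, 24.5 and 23.6 CPM in shNC and at 30.7, 35.8 and 39.8 CPM in shBmal1 (log2 fold change 0.59 ± 0.12, adjusted p = 0.00214, edgeR), summed after their values were seen. Both rows have an implied length of 671 bases, and tested genes of 500 to 1000 bases had a median of 0.45. Taken singly, LOC679739 was called higher and LOC100912599 was not (adjusted p = 0.0276 and 0.197, edgeR). With the length trend removed neither was called (0.36 and −0.23, adjusted p = 0.343 and 0.304, edgeR). TPM called neither (adjusted p = 0.111 and 0.804, limma). The sum was not fitted in those settings. Ndufv3 has a short second row on chromosome 13, at most 0.993 CPM in any library, and Ndufa10l1 a second row on chromosome 6 with 4 counts in 1 shNC library and 1 in an shBmal1 library. The main row of Ndufa10l1, on chromosome 9, is described as an Ndufa10-like gene. It was at 56.7, 61.6 and 55.1 CPM against 64.1, 75.2 and 74.3 CPM (0.30 ± 0.09, adjusted p = 0.0159, edgeR). The call was lost without shNC replicate 1 or 3 (0.0582 and 0.0638), without shBmal1 replicate 2 or 3 (0.0767 and 0.0671) and without a filter (0.072).

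Ndufa4 and Ndufa4l2 match by symbol but are not counted as complex I subunits in current usage. Ndufa4, now assigned to complex IV, was at 45.3, 43.0 and 44.8 CPM in shNC and at 72.2, 71.6 and 60.9 CPM in shBmal1 (0.62 ± 0.09, adjusted p = 0.000384, edgeR). Ndufa4l2, a paralog known to be induced by hypoxia-inducible factors, was at 385, 364 and 354 CPM against 213, 235 and 278 CPM. It fell by 0.61 ± 0.10 on the log2 scale (adjusted p = 0.00078, edgeR). With a mean FPKM of 358 in shNC, Ndufa4l2 was the most abundant nuclear row of the set per length. With both left out, together with the Ndufa10l1 row and the Ndufv3 copy, the median of the 34 remaining nuclear genes was 0.39.

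Promoter windows from RefSeq (build GRCr8) were found by symbol for 33 of 37 nuclear symbols; Ndufa8, Ndufb9 and Ndufa10l1 were among those without one. The 250 bases before the transcription start were searched on both strands for CACGTG, the E-box bound by CLOCK and BMAL1, CCGGAAG, the core site of ETS factors such as GABP, GCGC followed by any base and TGCGC, the site of NRF1, and AAGATGGCG, that of YY1. The E-box was found in 2 of 33 members (6.06%), beside 5.59% of all 33469 promoters. The ETS site was found in 7 members (21.2%, beside 7.27%) and the NRF1 site in 5 (15.2%, beside 3.75%). The YY1 site was in 0 of 33, beside 0.69%. Both members with an E-box, Ndufa7 and Ndufb3, rose, although Ndufb3 missed the threshold with the length trend removed (0.33, adjusted p = 0.0616, edgeR). Of the 5 with an NRF1 site, Ndufa5, Ndufa11 and Ndufs5 rose, Ndufa12 was not called and Ndufv3 fell. The windows of Ndufa7, Ndufb3 and Ndufv3 are given as examples of the E-box and NRF1 matches. These 3 windows are shown 5′ to 3′ on the gene's strand with the matched motif in capitals. In GRCr8, not the coordinates of the deposited table, they lie at chr7:15311196-15311445 (forward strand), chr9:67623167-67623416 (forward strand) and chr20:9613536-9613785 (forward strand).
Ndufa7: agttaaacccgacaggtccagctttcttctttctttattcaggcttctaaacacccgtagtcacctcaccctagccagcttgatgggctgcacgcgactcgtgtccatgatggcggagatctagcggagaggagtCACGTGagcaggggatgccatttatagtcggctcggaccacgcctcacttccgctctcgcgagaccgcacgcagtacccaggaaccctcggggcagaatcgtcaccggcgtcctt
Ndufb3: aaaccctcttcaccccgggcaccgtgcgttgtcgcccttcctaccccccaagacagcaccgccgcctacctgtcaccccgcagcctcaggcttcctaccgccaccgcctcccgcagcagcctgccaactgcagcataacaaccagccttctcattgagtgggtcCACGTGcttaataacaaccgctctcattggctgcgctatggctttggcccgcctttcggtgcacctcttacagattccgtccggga
Ndufv3: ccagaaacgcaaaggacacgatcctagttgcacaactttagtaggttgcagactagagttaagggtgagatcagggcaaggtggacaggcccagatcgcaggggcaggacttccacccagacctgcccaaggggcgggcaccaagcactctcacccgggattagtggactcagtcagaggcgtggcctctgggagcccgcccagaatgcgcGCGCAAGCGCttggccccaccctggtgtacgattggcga

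The E-box lay 115 to 110 bases before the start of Ndufa7 and 86 to 81 bases before that of Ndufb3. The NRF1 match of Ndufv3, read on the opposite strand, lay 39 to 30 bases before its start. Called rises without an E-box in the window numbered 14 of the 16 with a promoter. A match is a run of letters, not a measured binding site.

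Factors that assemble complex I moved in both directions. Among 18 assembly genes, 6 rose, 5 fell and 7 did not pass, with a median log2 fold change of −0.16. These shares were near the 36% and 35.3% of all tested genes. With TPM, 5 were higher and 10 lower, beside 4065 and 6681 of 14342 tested genes. Ndufaf1, a factor for the membrane arm, was at 8.26, 9.14 and 9.36 CPM in shNC and at 232, 116 and 98.5 CPM in shBmal1 (4.06 ± 0.33, adjusted p = 1.35e-05, edgeR). The groups lay far apart, with shBmal1 replicate 1 the highest. Foxred1 rose by 1.503 and Ndufaf8 by 0.98, the latter coming to 0.14 with the length trend removed (adjusted p = 0.431, edgeR). Ecsit, a partner of Ndufaf1 in the same assembly complex, fell from 15.8 ± 0.28 to 5.60 ± 0.83 CPM (−1.49; SD, n = 3). Tmem70 fell by 2.05 and Nubpl, which delivers iron-sulfur clusters to complex I, by 1.70, both as log2 values (edgeR, adjusted p = 0.00193 and 0.00229).

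Of 14 rows for general iron-sulfur cluster assembly, 6 were lower, 2 higher and 6 did not pass, beside 35.3% lower and 36% higher among all tested genes. Nfs1 has a pair of rows among those not passing. With TPM, 9 were lower and 2 higher, beside 6681 and 4065 of 14342 tested genes. Glrx5 (−0.93), Lyrm4 (−1.30) and Hscb (−1.20) were lower, as were Iscu (−0.66), Isca2 (−1.16) and Isca1 (−0.40). Isca1 missed the threshold with the length trend removed (adjusted p = 0.0768, edgeR). Bola3 rose from 21.0 ± 1.95 to 196 ± 16.0 CPM (log2 fold change 3.22, SD, n = 3), and the ferredoxin gene Fdx2 rose by 1.09. Proteases that act on inner membrane and matrix proteins had 4 of 7 members higher and 1 lower. Among all tested genes 36% were higher and 35.3% lower. With TPM, 3 proteases were higher and 2 lower, beside 4065 and 6681 of 14342 tested genes. Spg7 rose by 2.36, Yme1l1 by 1.01 and Clpp by 0.96, and Afg3l2, a partner of Spg7, fell by 0.71 on the log2 scale.

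Genes for mitochondrial transcription, RNA handling and DNA replication, taken as 1 list, were mostly higher while the Mt-nd mRNAs were lower. Rises numbered 14 and falls 4 among 22 genes, and 4 missed the threshold, with a median log2 fold change of 0.95. Among all tested genes 36% were higher and 35.3% lower. With TPM, 12 of these genes were higher and 5 lower, beside 4065 and 6681 of 14342 tested genes. Twnk, the mitochondrial DNA helicase, rose from 15.8 ± 0.54 to 228 ± 34.0 CPM (3.86, adjusted p = 1.18e-07, edgeR; SD, n = 3). Fastkd2, a mitochondrial RNA-binding protein gene, rose by 3.5998 and Trmt10c, which takes part in cutting tRNAs out of the mitochondrial transcript, by 2.65. Fastk, known for its part in maturation of the Mt-nd6 mRNA, fell from 68.7 ± 1.95 to 25.3 ± 6.57 CPM (−1.44). Polg, the mitochondrial DNA polymerase gene, fell by 0.90 and Grsf1 by 0.61 on the log2 scale.

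Nuclear factors known to act on respiratory chain genes moved in both directions. Among the 7 with enough counts there were 3 rises and 1 fall, and 3 missed the threshold. Over all tested genes 36% were higher and 35.3% lower. With TPM, 2 of the 7 were higher and 3 lower, beside 4065 and 6681 of 14342 tested genes. Nrf1 was at 17.7, 19.7 and 16.6 CPM in shNC and at 11.3, 9.71 and 10.2 CPM in shBmal1 (log2 fold change −0.79 ± 0.14, adjusted p = 0.00132, edgeR). Gabpa was at 32.5, 33.1 and 36.03 CPM against 83.1, 103 and 79.1 CPM (1.38 ± 0.11), and Yy1 rose by 1.48. The groups were separate for each of these. Gabpb1 rose by 0.52, a call lost without shNC replicate 2 or shBmal1 replicate 2 or 3 (adjusted p = 0.0815, 0.081 and 0.0892, edgeR), without a filter (0.0627), with the replicate block (0.0505) and with TPM (0.507, limma). The coactivator genes Ppargc1a and Ppargc1b, at group means of at most 0.144 and 0.211 CPM, had too few counts to be tested.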

How the data were processed

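RNA from 3 shNC and 3 shBmal1 libraries was sequenced as paired-end reads after capture on oligo-dT beads, per the labels' protocols, whose wording also speaks of adipose tissue. Named in the submitters' processing notes, without role or order, are StringTie 1.3.4d, HISAT2 2.0.4, DESeq2, edgeR and cutadapt 1.9. Build, annotation and strand setting were not given in the sources used here. In units, the deposited table holds raw counts per gene and, computed by the authors, FPKM, in which genes without counts are listed at 1e-04, per the file headers and values. Value columns tied to no sample numbered 0.

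Genes passing filterByExpr (minimum count 10, total 15) were scaled by TMM and compared over the whole table with edgeR 4.0.16 (glmQLFit, glmQLFTest; R 4.3.3), Benjamini-Hochberg adjusted over 14342 genes at 0.05, without a replicate block. SE is the log2 fold change over the square root of F. The procedure was tested on simulated counts. Length trends were removed by lowess (span 0.3) of each library's log2 CPM on implied length, as offsets. TPM values were rescaled FPKM, tested with limma 3.58.1 on log2(TPM + 1). Other alternatives were DESeq2 1.42.0, its size factors, no filter, scaling without mitochondrial or rRNA genes, a replicate block and each library left out. Replicates of 1 group always differed beyond counting noise (chi-square over degrees of freedom, 11.2 to 25.2). Fewer counts make shBmal1 values less precise.

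A member enters the counts and medians but its own values are not reported here. The members, lists and motifs were chosen with earlier results of these data known. Values per library are given for Mt-nd genes, nuclear core genes, the 6 largest called rises and falls, Ndufa4 and Ndufa4l2, and up to 3 called genes per direction were named per list; other named genes were chosen after their values were seen.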

Additional observations from a re-analysis of the deposited data

How the results depend on the processing

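The call of all 7 Mt-nd genes as lower held in every alternative except without shNC replicate 2 or 3, where 6 were called. Their median log2 fold change was −0.33 with DESeq2's size factors and with its test, −0.46 without a filter, −0.74 with TPM and −0.83 with the length trend removed, and ran from −0.51 to −0.33 with each library left out. The nuclear median reversed to −0.064 with TPM and came to 0.0395 with the length trend removed, with 13 and 12 members called lower against 7 and 13 and 12 called higher against 18. Over all 14342 tested genes, 6681 and 4794 were called lower and 4065 and 5293 higher in these settings. TPM moved the median of all genes from −0.01 to −0.35 and the share of calls that were higher from 50.5% to 37.8%. Relative to all genes, the nuclear median was 0.33, 0.28 with TPM and −0.005 with the length trend removed, and the Mt-nd median −0.37, −0.40 and −0.87. The fall in the mitochondrial minus nuclear level stayed between 0.78 and 0.90 in the alternatives that could change it. These were TPM, the length trend removed, Ndufa1 summed with LOC108348144 and each library left out. Scaling, filter, block and choice of test do not enter this within-library difference, so its value under them was fixed in advance. With TPM, Ndufb4 (−0.33), Ndufs1 (−0.37) and Ndufa10l1 (−0.0725) turned negative, the values with a pseudocount of 0.1 being −0.33, −0.37 and −0.0737. With the length trend removed, Ndufb4 (−0.80), Ndufa6 (−0.56), Ndufc1 (−0.71), Ndufa2 (−0.21), Ndufb2 (−0.052), Ndufs5 (−0.10) and Ndufa11 (−0.0081) did. The cause of these shifts was not tested. Same-numbered libraries did not deviate together (r = −0.07, 0.02 and 0.03), and the replicate block gave 9415 calls against 10233, with 18 nuclear members higher, 6 lower and all 7 Mt-nd genes lower. Ndufa8 lost its call with the block (adjusted p = 0.0751). Fewer counts limit the precision of the shBmal1 values, and depth and group cannot be told apart.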
